A study of Caenorhabditis elegans with 12 samples.

Results

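Neuropeptide genes of the flp and nlp families were examined in 3 mutants of the miR-58 microRNA family of Caenorhabditis elegans. Members were all gene names in the deposited table that begin with flp or nlp and a number, without 6 nlp genes known as antimicrobial (nlp-27, nlp-28, nlp-29, nlp-30, nlp-31 and nlp-34). This gave 63 of 16309 listed genes, 27 of them flp and 36 nlp. Genes such as flp-13 and nlp-22 are not analysed here.

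The study sequenced RNA of whole animals at the late L4 stage in 12 samples, 3 for each of 4 genotypes. The control was the wild-type strain N2 Bristol. The single mutant was MT15024, mir-58(n4640) on chromosome IV. The double mutant MT18409 carried nDf53 on chromosome III, which removes mir-80, together with mir-58(n4640). The quadruple mutant MT15563 carried nDf53, mir-58(n4640) and nDf54 on chromosome X, which removes mir-81 and mir-82. All strains were fed bacteria with light-labelled lysine and arginine and were staged by the shape of the vulva. Larvae of wild type and mir-58 were harvested after 33 h on food, and the slower multiple mutants later, by 6 h (double) and 15 h (quadruple). In the double and quadruple mutants genotype and time of collection therefore cannot be told apart. The mutations are present in every cell, and each genotype is represented by 1 strain.

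Neuropeptides are short signalling peptides cut from larger precursors. In the nematode, flp genes encode FMRFamide-like peptides, which end in an amidated arginine and phenylalanine, and nlp genes encode neuropeptide-like proteins of many other kinds. Precursors are cut by proprotein convertases, trimmed by carboxypeptidases and amidated inside dense-core vesicles, and the released peptides act mainly on G protein-coupled receptors. Most flp and nlp genes are expressed in few neurons, while some nlp genes are expressed in the intestine or epidermis. MicroRNAs of the miR-58 family share a seed, the short stretch that pairs with target messages.

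The values are the authors' log2 fold changes of each mutant against wild type and their adjusted p-values. A gene was called higher or lower when the adjusted p-value was under 0.05. No levels per sample were used, so no spread between replicates or depth can be given, and a small change in a poorly covered gene cannot be told from one in a well covered gene. All 3 comparisons share the same wild-type samples. In RNA from whole animals, fewer cells of a type and less RNA per cell cannot be told apart.

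Of the 63 neuropeptide genes, 8 (12.7%) were called in at least 1 mutant and 55 in none, while 27.1% of all listed genes were called in at least 1. No member was called in mir-58 by the authors' DESeq test, where 1.65% of all listed genes were called higher and 5.79% lower. In the double mutant flp-10 was called higher, and nlp-25, nlp-36 and nlp-40 were called lower, against 10.5% and 5.86% of all listed genes. The quadruple mutant had 8 calls: flp-10, nlp-8 and nlp-2 higher, and nlp-24, nlp-25, nlp-26, nlp-36 and nlp-40 lower, against 14.2% and 9.82% of all listed genes. Both called flp values belong to flp-10, so 26 of the 27 flp genes had no call in any mutant.

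These counts vary with the threshold. At an adjusted p under 0.1, 2 members were higher and 1 lower in mir-58 (all listed genes 2.42% and 7.73%), 1 and 5 in the double mutant (12.1% and 7.66%), and 3 and 5 in the quadruple mutant (16.7% and 11.9%). At an adjusted p under 0.01, none was called in mir-58 (0.907% and 3.71%), 0 were higher and 1 lower in the double mutant (8.25% and 3.49%), and 2 and 4 in the quadruple mutant (11.1% and 6.32%). A minimum of 1.5-fold beside 0.05 left the members' calls as they were, with 1.6% and 5.33% of all listed genes called in mir-58 and the shares above in the other mutants.

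**Figure D1:**
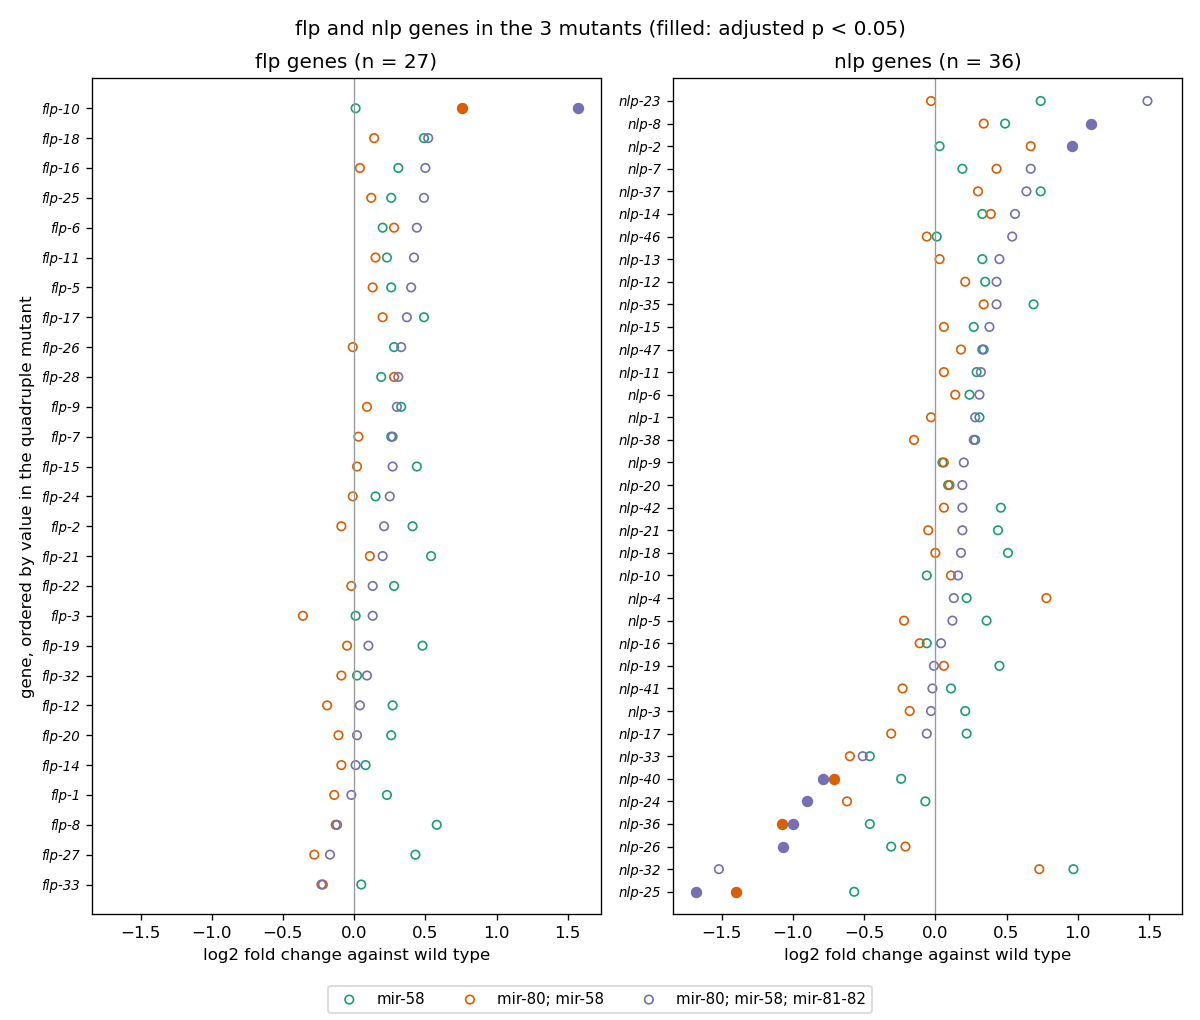
Log2 fold change against wild type (horizontal axis) of each of the 27 flp genes and 36 nlp genes (rows, ordered by the value in the quadruple mutant) in the mir-58 strain, the double mutant (mir-80, mir-58) and the quadruple mutant (also mir-81-82; colours). Filled points have an adjusted p-value under 0.05: they lie towards the ends of the order, with flp-10 at the top of the flp genes and nlp-25 at the bottom of the nlp genes.

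A larger share of the members than of all genes lay close to 0. In the quadruple mutant 47 of 63 (74.6%) had a log2 fold change between -0.5 and 0.5, against 49.4% of all listed genes. In the double mutant 54 of 63 (85.7%) did so, against 58%, and in mir-58 55 of 63 (87.3%), against 70.8%. A change of at least 2-fold was listed for no member in mir-58, 2 in the double mutant and 7 in the quadruple mutant. Of all listed genes 13%, 20.1% and 26.1% had such a change. The smallest size of a called log2 fold change among all listed genes was 0.5 in mir-58 and 0.6 in the other mutants, so smaller shifts of single genes were below what the deposited tests called.

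In mir-58, collected at the same time as wild type, the members stood slightly above 0 as a body. Their median was 0.26, with 55 of 63 above 0 and 8 below, whereas all listed genes had a median of -0.06 with 43.8% above 0. All 27 flp genes were above 0, from 0.01 for flp-10 and flp-3 to 0.58 for flp-8 in the authors' deposited table. Of the 36 nlp genes 28 were above 0. The pan-neuronal genes, which encode synaptic and other proteins shared by neurons, stood at a like median of 0.29 with 16 of 19 above 0. If the authors' adjustment followed Benjamini and Hochberg over the listed genes, 9 members had an unadjusted p under 0.05 and a positive value (14.3%, against 5.33% of all listed genes) and 2 a negative one (3.17%, against 13.1%). None of these passed the adjustment. In the same comparison sperm genes had a median of -3.08, with 13 of 17 lower, and yolk genes a median of -2.17, with 4 of 5 lower. The share of all listed genes called lower there was 5.79%. The part of sperm and yolk genes in the members' values was not tested.

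The shift was not seen at the same size in the other mutants. In the double mutant the median of the members was 0.02, with 32 above 0 and 30 below, beside a median of 0.08 over all listed genes. Under the same assumption 1 member had an unadjusted p under 0.05 and a positive value there (1.59%, against 14.7% of all listed genes), and 5 a negative one (7.94%, against 10.4%). In the quadruple mutant the median was 0.20, with 48 above 0 and 15 below, beside 0.11 over all listed genes. Relative to the median of all listed genes the members thus stood at 0.32, -0.06 and 0.09 in the 3 mutants. For flp genes alone the medians were 0.26, -0.01 and 0.25, and for nlp genes 0.26, 0.04 and 0.19.

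**Figure D2:**
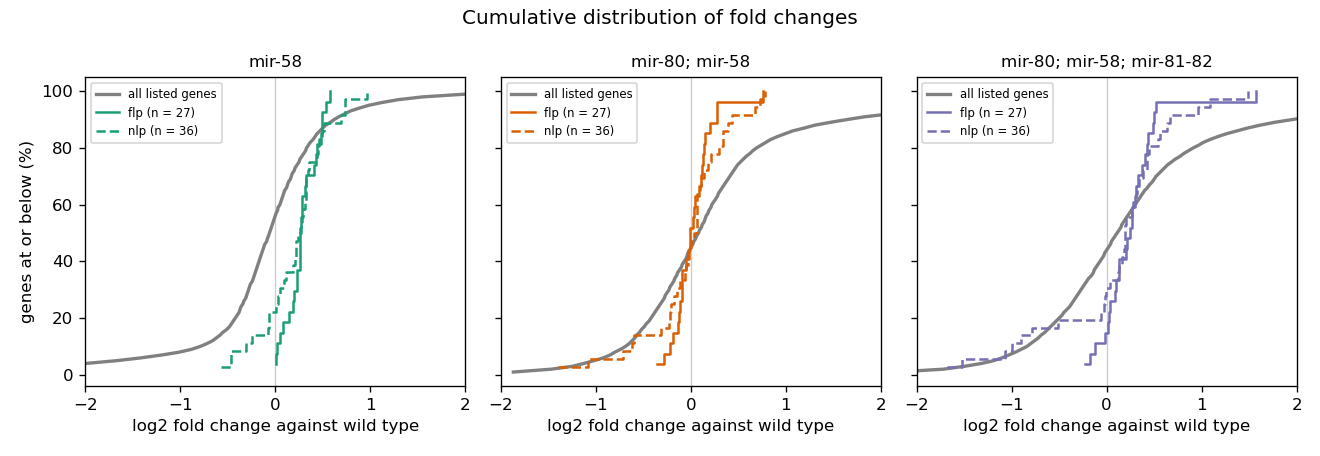
Share of genes (vertical axis, %) at or below each log2 fold change against wild type (horizontal axis, shown from -2 to 2) for all listed genes (grey), the 27 flp genes (solid) and the 36 nlp genes (dashed) in the 3 mutants. In mir-58 both coloured lines lie to the right of the grey line up to about 0.5, and in all 3 mutants they are steeper than it apart from a lower tail of nlp genes.

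The member called higher with the smallest p-value was flp-10. Its peptide, with that of flp-17, is known to act on the receptor EGL-6 to inhibit egg laying, and flp-10 is among the flp genes known to limit turning in mating males. The authors' deposited table gives flp-10 a log2 fold change of 0.01 in mir-58 (adjusted p = 1). In the double mutant the authors' deposited table gives it 0.76 (adjusted p = 0.0499), just inside the threshold. The quadruple value is 1.57 (adjusted p = 1.12e-07) by the authors' deposited table. The value was thus higher in each successive mutant, but the double and quadruple mutants were also collected later, in the same order. Loss of more of the family and time of collection cannot be told apart here, and the steps were not tested. In the quadruple mutant flp-18 came next among flp genes, at 0.52 by the authors' deposited table. For flp-17, which is expressed in the BAG sensory neurons, the authors' deposited table gives 0.49, 0.20 and 0.37, uncalled. The receptor gene egl-6 is at -0.01, 0.23 and 0.07 by the authors' deposited table, uncalled as well.

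The second, nlp-8, encodes peptides of the ALA neuron, which drives sleep after stress. In the authors' deposited table nlp-8 has 0.49 in mir-58, then 0.34 in the double mutant, uncalled (adjusted p = 0.173 and 0.521). The quadruple mutant has 1.09 by the authors' deposited table (adjusted p = 5.37e-04). Other members known from sleep-related neurons had smaller values in the quadruple mutant and no call. The orcokinin-like gene nlp-14, also expressed in ALA, is at 0.33, 0.39 and 0.56 by the authors' deposited table. For flp-24, another ALA gene, the authors' deposited table gives 0.15, -0.01 and 0.25. The sleep gene of the RIS neuron, flp-11, is at 0.23, 0.15 and 0.42 by the authors' deposited table. Of the 4 listed members in this role, all were above 0 in mir-58 and in the quadruple mutant, and 1 was called higher in the latter. Of all listed genes 43.8% and 55.7% were above 0 in these mutants, and 14.2% were called higher in the quadruple mutant.

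The third, nlp-2, encodes RPamide peptides and lies in a cluster on chromosome X with its relatives nlp-22 and nlp-23. The authors' deposited table gives nlp-2 0.03, 0.67 and 0.96, called in the quadruple mutant just inside the threshold (adjusted p = 0.0487). Its neighbour nlp-23 is at 0.74, -0.03 and 1.49 by the authors' deposited table, and the last value, larger than that of nlp-2, was not called (adjusted p = 0.730). The cluster lies on the same chromosome as mir-81 and mir-82, and the annotation places 14 coding genes between nlp-2 and mir-81. Of the 9 that are listed, 2 were higher and 1 lower in the quadruple mutant, at a median of -0.09. The shares of all listed genes there were 14.2% higher and 9.82% lower. For the higher ones, glr-7 (a glutamate receptor gene) and F47G3.3, the authors' deposited table lists 2.85 and 1.65, and for the lower one, dhhc-9, -0.97. The part of this neighbourhood in the value of nlp-2 was not tested. Among receptors known for RPamides, gnrr-3 is at 0.09 and gnrr-6 at -0.57 in quadruple mutants by the authors' deposited table, uncalled.

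**Figure D3:**
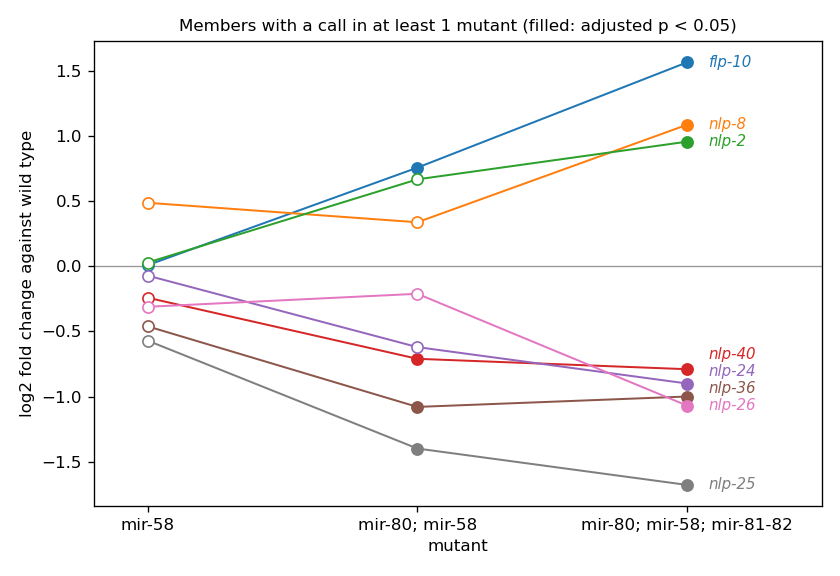
Log2 fold change against wild type (vertical axis) of the 8 neuropeptide genes called in at least 1 mutant, in the mir-58 strain, the double mutant and the quadruple mutant (horizontal axis); filled points have an adjusted p-value under 0.05 and lines join the values of a gene. No point is filled in mir-58, 4 are in the double mutant and 8 in the quadruple mutant.

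All members called lower are nlp genes. Of these nlp-40 has the best known source: it encodes the pacemaker peptide that the intestine releases in each defecation cycle, and its receptor on the motor neurons is AEX-2. In the authors' deposited table nlp-40 is at -0.24 in mir-58 (adjusted p = 0.527), -0.71 in the double mutant (adjusted p = 0.0148) and -0.79 in the quadruple mutant (adjusted p = 6.24e-03). The receptor gene aex-2 is at -0.37, -0.78 and -0.89 by the authors' deposited table, uncalled. The convertase gene aex-5, required for the same motor program, is at -0.51, -0.75 and -1.30 by the authors' deposited table, called only in the quadruple mutant (adjusted p = 3.50e-04). Calls of intestinal genes were also mostly lower. In the quadruple mutant 9 of 19 on the intestine list were lower and 1 higher, at a median of -0.63. In the double mutant 7 were lower and 1 higher, at -0.55. Of all listed genes 14.2% were called higher and 9.82% lower in the quadruple mutant, and 10.5% and 5.86% in the double mutant. The part of the intestine as a whole in the value of nlp-40 was not tested.

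Members of the YGGW type, whose precursors are rich in glycine and aromatic residues, made up most of the rest. This class also includes the antimicrobial genes left out by the rule, and 5 of its genes were kept: nlp-24, nlp-25, nlp-26, nlp-32 and nlp-33. All 5 of them in the quadruple mutant had values below 0, at a median of -1.07, and 3 were called lower. Of all listed genes 9.82% were called lower there, and the median was 0.11. The authors' deposited table gives nlp-25 -0.57, -1.40 and -1.68, with calls in double (adjusted p = 0.0201) and quadruple mutants (adjusted p = 3.54e-03). This is the lowest value of any member in both mutants. Its near neighbour on chromosome V, nlp-26, is at -0.31, -0.21 and -1.07 by the authors' deposited table, called in the quadruple mutant (adjusted p = 0.0179). For nlp-24 the authors' deposited table gives -0.07, -0.62 and -0.90, with adjusted p = 0.0532 in double and 2.17e-03 in quadruple mutants. The gene nlp-33, known to be induced in the epidermis by fungal infection, is at -0.46, -0.60 and -0.51 by the authors' deposited table, uncalled. The values of nlp-32 in the authors' deposited table, 0.97, 0.73 and -1.52, differ in sign, and no adjusted p was under 0.870.

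The 6 antimicrobial nlp genes had calls in both directions. Among them, in the quadruple mutant, 1 of 6 was higher and 2 were lower, at a median of 0.40. The shares of all listed genes there were 14.2% higher and 9.82% lower. The authors' deposited table gives nlp-34 -0.98, -1.74 and -1.35 and nlp-27 -0.24, -0.86 and -0.99, against 1.02 for nlp-31 in the quadruple mutant. With the related cnc genes, 2 of 13 epidermal antimicrobial genes were higher there and 3 lower, beside the same shares of all listed genes. The called cnc genes are cnc-4 and cnc-8, at 1.05 and -1.0 by the authors' deposited table, with adjusted p = 0.0147 and 1.93e-03.

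The remaining lower call is nlp-36, which had the smallest adjusted p of the members in the double mutant. It is at -0.46 in mir-58 (adjusted p = 0.109), -1.08 in the double mutant (adjusted p = 8.70e-05) and -1.0 in the quadruple mutant (adjusted p = 4.47e-04) by the authors' deposited table. Whether counting used the strand is not given in the sources used here, so genes that overlap another gene on the opposite strand are uncertain. This applies to 12 of the 63 members, among them nlp-24, nlp-26 and nlp-36. The partner of nlp-26, Y43F8C.3, is at 0.51, 1.27 and 1.76 by the authors' deposited table, opposite in sign to nlp-26. The partner of nlp-24, glb-15, is at 0.47, -0.12 and -0.22 by the authors' deposited table, uncalled, and dars-1, the partner of nlp-36, is not used here. Among uncalled members, flp-16 overlaps romo-1, which is at -0.52, -0.95 and -1.25 by the authors' deposited table, while flp-16 is at 0.31, 0.04 and 0.50.

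Members of the egg-laying circuit other than flp-10 had no call. The peptides of nlp-3 are released by the HSN neurons and promote egg laying, and the authors' deposited table gives nlp-3 0.21, -0.18 and -0.03. Those of nlp-7 act the other way, and nlp-7 is at 0.19, 0.43 and 0.67 by the authors' deposited table. Of the 5 listed genes in this role 4 were above 0 in the quadruple mutant and 1 was called higher, beside 55.7% and 14.2% of all listed genes.

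Among 8 genes with known roles in locomotion, aggregation and feeding none was called, and the medians were 0.30 in mir-58, -0.02 in double and 0.20 in quadruple mutants. Of all listed genes 1.65% were called higher in mir-58, 10.5% in double and 14.2% in quadruple mutants. The shares called lower were 5.79%, 5.86% and 9.82% in the same order. Whether these 8 genes differ from all listed genes in their calls was not tested. The locomotion gene flp-1 is at 0.23, -0.14 and -0.02 by the authors' deposited table. For flp-18, whose peptides act on NPR-1, NPR-4 and NPR-5, the authors' deposited table gives 0.49, 0.14 and 0.52. The second ligand gene of NPR-1, flp-21, is at 0.54, 0.11 and 0.20 by the authors' deposited table. The arousal gene flp-2 is at 0.41, -0.09 and 0.21 by the authors' deposited table, and flp-20, of the touch neurons, at 0.26, -0.11 and 0.02. The stretch-sensitive neuron DVA expresses the cholecystokinin-like gene nlp-12, at 0.35, 0.21 and 0.43 by the authors' deposited table. Values of nlp-9 and flp-14 were near 0, between -0.09 and 0.20 in the authors' deposited table.

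Other members of known kind had no call either, with values of different size. The gene nlp-37, known as the pigment-dispersing factor gene pdf-2, is at 0.74, 0.30 and 0.64 by the authors' deposited table, with adjusted p = 0.0976 in mir-58. For nlp-1, which the olfactory neuron AWC uses in odour adaptation, the authors' deposited table gives 0.31, -0.03 and 0.28. The gonadotropin-releasing hormone-like gene nlp-47 is at 0.33, 0.18 and 0.34 by the authors' deposited table. The second orcokinin-like gene, nlp-15, is at 0.27, 0.06 and 0.38 by the authors' deposited table. The myoinhibitory peptide-like gene nlp-38 is at 0.28, -0.15 and 0.27 by the authors' deposited table, and nlp-5 and nlp-6 are at 0.12 and 0.31 in the quadruple mutant. The flp genes that with flp-10 limit male turning, flp-8, flp-12 and flp-20, are at -0.12, 0.04 and 0.02 there in the authors' deposited table.

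Size alone did not decide a call. The largest sizes in mir-58 in the authors' deposited table are those of nlp-32 (0.97), nlp-23 and nlp-37 (both 0.74), nlp-35 (0.69) and flp-8 (0.58), and the smallest adjusted p among them is 0.0807, for flp-8. Across the 3 mutants the authors' deposited table lists 0.69, 0.34 and 0.43 for nlp-35, 0.58, -0.13 and -0.12 for flp-8, and 0.22, 0.78 and 0.13 for nlp-4. In the double mutant nlp-4 is at 0.78 by the authors' deposited table (adjusted p = 0.266), a larger value than the called 0.76 of flp-10. In the quadruple mutant nlp-23 at 1.49 and nlp-32 at -1.52 were not called, while nlp-40 at -0.79 was, in the authors' deposited table. The precision of single values thus differs between members, and it cannot be given without counts.

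Successive genotypes were set against each other by the difference of their log2 fold changes, in which wild type cancels. These differences were not tested. From mir-58 to the double mutant 52 of 63 members were lower and 11 higher, at a median of -0.29, whereas 46.7% of all listed genes were lower, at a median of 0.04. Among flp genes 24 of 27 were lower. The exceptions among flp genes were flp-10, higher by 0.75, and flp-6 and flp-28, higher by 0.08 and 0.09. The largest decreases were those of nlp-25 (-0.83), nlp-23 (-0.77), flp-8 and flp-27 (both -0.71). Of these only nlp-25 was called in any mutant.

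From the double to the quadruple mutant the members went the other way. Here 55 of 63 were higher and 8 lower, at a median of 0.18, while 48.6% of all listed genes were higher, at a median of 0. Of the flp genes 26 of 27 were higher, by 0.81 for flp-10 and less for the rest. The largest increases among nlp genes were those of nlp-23 (1.52) and nlp-8 (0.75), and the largest decreases those of nlp-32 (-2.25) and nlp-26 (-0.86). Neither nlp-23 nor nlp-32 was called in any mutant. Both steps use the double mutant's samples, so they are not separate measurements of that strain. Pan-neuronal genes had median differences of -0.07 in the first step and 0.03 in the second. Peptide genes with other names had medians of 0.27, -0.12 and 0.16 in the 3 mutants, and receptor genes 0.29, -0.06 and -0.18. For 36 genes with current flp or nlp symbols that the rule did not take, the medians were 0.24, -0.02 and 0.20. A lower median in the double mutant than in mir-58 was thus not particular to the members.

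The genes that process and receive the peptides were compared next, as lists matched by name or, for genes listed under a sequence name, by their current symbol. Of 11 processing genes 1 was lower in the quadruple mutant, aex-5, and none was called in the others. The share of all listed genes called lower in the quadruple mutant was 9.82%. The main neuronal convertase gene egl-3 is at 0.38, 0.14 and 0.12 by the authors' deposited table. The carboxypeptidase gene egl-21 is at 0.30, 0.32 and 0.39 by the authors' deposited table, and sbt-1, which encodes the chaperone of EGL-3, at 0.29, 0.13 and 0.29. The amidation genes pghm-1, pgal-1 and pamn-1 lay between -0.04 and 0.40 by the authors' deposited table.

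Of 17 genes of dense-core vesicle formation and release 3 were higher in mir-58, none in double and 3 in quadruple mutants. None was lower. The shares of all listed genes called higher were 1.65%, 10.5% and 14.2% in the 3 mutants, and those called lower 5.79%, 5.86% and 9.82%. The kinesin gene unc-104, which carries vesicles along axons, is at 1.02, 0.48 and 0.69 by the authors' deposited table. Its adjusted p-values are 4.85e-05, 0.256 and 0.0405. The priming gene unc-13 is at 0.89, 0.59 and 0.64 by the authors' deposited table, with calls in mir-58 and the quadruple mutant. The CAPS gene unc-31, required for dense-core vesicle release, is at 0.79, 0.49 and 0.37 by the authors' deposited table, with a call in mir-58 alone (adjusted p = 0.0233). The third call in the quadruple mutant is cccp-1, a gene of vesicle maturation, at 0.91 by the authors' deposited table (adjusted p = 0.0264). Whether the effects differ between the mutants was not tested.

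Receptor genes, listed by name and not paired with ligands, had lower medians than the flp and nlp members in the multiple mutants. The members' medians were 0.02 in double and 0.20 in quadruple mutants, and those of peptide genes with other names -0.12 and 0.16. These differences were not tested. Of 100 receptor genes none was called in mir-58, 1 was lower in double and 2 in quadruple mutants, and none was higher. Shares of all listed genes called lower in the double and quadruple mutants were larger, 5.86% and 9.82%, with 10.5% and 14.2% called higher. The receptor medians were 0.29, -0.06 and -0.18, with 79, 43 and 37 of 100 above 0. The called genes were npr-5, at -0.13, -0.94 and -1.44 by the authors' deposited table (with adjusted p = 0.814, 0.0129 and 8.62e-05), and npr-40, at -1.15 in the quadruple mutant (adjusted p = 0.0379). NPR-5 is a known receptor of flp-18 peptides, and flp-18 is at 0.52 there in the authors' deposited table. The other flp-18 receptor genes, npr-4 and npr-1, are at -0.34 and 0.09 in the authors' deposited table, uncalled. Receptors of nlp-12 peptides, ckr-1 and ckr-2, are at -0.20 and -0.37 by the authors' deposited table, uncalled as well, beside 0.43 for nlp-12.

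Neprilysins, membrane metalloproteases that degrade peptides, changed far more. Of 19 nep genes 1 was higher and 2 lower in mir-58, and 8 higher and 2 lower in the double mutant. In the quadruple mutant 10 were higher and 2 lower. The shares of all listed genes called higher were 1.65%, 10.5% and 14.2% in the 3 mutants, and those called lower 5.79%, 5.86% and 9.82%. For nep-9 the authors' deposited table lists -0.79, 5.31 and 5.42, for nep-8 -2.76, 4.89 and 4.88, for nep-13 -2.78, 3.40 and 3.34, and for nep-23 -3.79, 3.53 and 3.59. Sperm genes had values of the same order, with a median of -3.08 in mir-58, 3.67 in double and 3.53 in quadruple mutants over 17 genes, of which 13 were lower and then 17 higher. The part of sperm in the nep values was not tested. The nep genes outside this pattern included nep-26, at 0.79, 0.90 and 1.27 and called in all 3 mutants, and nep-22, at -0.45, -1.55 and -1.47, in the authors' deposited table.

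**Figure D4:**
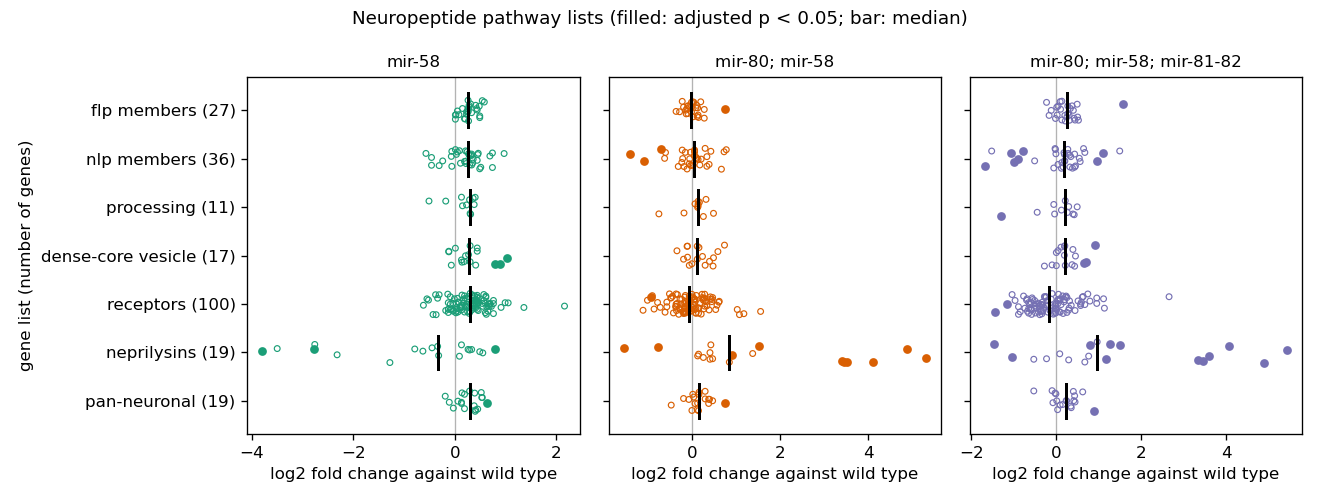
Log2 fold change against wild type (horizontal axis) of the genes (points) of the flp and nlp members and of 5 lists of pathway and pan-neuronal genes (rows, with the number of genes) in the 3 mutants. Filled points have an adjusted p-value under 0.05 and black bars are medians. Receptor medians lie at 0.29 in mir-58 and -0.18 in the quadruple mutant, and the neprilysins spread furthest, up to 5.42.

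Marker lists of other tissues of the same animals also had calls. The shares of all listed genes called higher were 1.65%, 10.5% and 14.2% in the 3 mutants, and those called lower 5.79%, 5.86% and 9.82%. Beside sperm and intestine, muscle genes had 13 of 19 lower in the quadruple mutant at a median of -0.84, after 4 lower and 1 higher in mir-58 and 4 lower in the double mutant. Of 5 yolk genes 4 were lower in mir-58 at a median of -2.17, 3 higher in the double mutant at 1.70, and 2 higher in the quadruple mutant at 0.89. Pan-neuronal genes had 1 of 19 called in each mutant, all higher, at medians of 0.29, 0.15 and 0.23. These were unc-2 in mir-58 and maco-1 in the double and quadruple mutants, at 0.63, 0.76 and 0.89 by the authors' deposited table. Peptide genes with other names (pdf-1, ntc-1, snet-1, trh-1, capa-1 and lury-1) gave no call in any mutant, at medians of 0.27, -0.12 and 0.16. The share of the neuronal part of the animal in the small shifts of the members was not tested.

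By position, the 60 members with a match in the annotation lie on all 6 chromosomes, and 21 of them on X. The 21 genes on X had 1 call, nlp-2, and a median of 0.28 in the quadruple mutant. The 9 genes on chromosome V had 3 of the lower calls in the quadruple mutant, all of the YGGW type. Over all chromosomes, 14.2% of all listed genes were called higher and 9.82% lower in the quadruple mutant. In the double mutant these shares were 10.5% and 5.86%. On chromosome IV, which carries mir-58, flp-10 was the called gene among 9, and on chromosome III, which carries mir-80, nlp-36 among 8. The called genes among 7 on chromosome I were nlp-8 and nlp-40, and none of 6 on chromosome II was called. None of mir-58, mir-80, mir-81 and mir-82 lies on chromosome I or II.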

How the data were processed

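RNA of whole late L4 animals was sequenced in 12 samples. Groups were taken from the sample titles. One table was deposited, with log2 fold changes of each mutant against wild type made by the authors, per the file headers. It also holds the authors' deposited adjusted p-values. The tests were run with DESeq, per the submitters' processing notes, and its version, the aligner, counting program, genome build and adjustment method are not given in the sources used here. No counts per sample were used, so depth, replicate spread and new fits could not be had, and sequences were not used. The labels do not say whether replicates were separate cultures, so p-values may measure technical spread.

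Members were matched on the gene name without regard to case. Calls are adjusted p under 0.05 over all 16309 genes, counted per direction beside all listed genes. Members and lists were chosen with earlier results of these data known. Every member could be named, with full values for those called, the 5 largest by size per mutant and those with known roles. In the lists of pathway genes the called genes are named, at most 4 per mutant by p, and lists of other tissues are given by counts and medians. The genes cnc-4 and cnc-8 were named after their values were seen. The processing genes egl-3, egl-21, sbt-1, pghm-1, pgal-1 and pamn-1, the genes beside nlp-2, overlap partners and receptors of named ligands were chosen after their values were seen. Unadjusted p-values were recovered as adjusted p times rank over the number of genes, an upper limit if the adjustment was Benjamini-Hochberg. Symbols, chromosomes, gene order and overlaps come from Ensembl release 115 and RefSeq, both of assembly WBcel235, and no coordinates are given because the authors' build is unknown. Of the members 60 matched and 3 did not (nlp-37, nlp-38 and nlp-42). The counting was tested on simulated data. Python 3.11.15, numpy 2.4.6, pandas 2.3.3 and matplotlib 3.10.9 were used.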

Additional observations from a re-analysis of the deposited data

How the results depend on the processing

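Only the authors' comparisons were used, so leaving out replicates, other normalisations and filters on low counts could not be run. No paired analysis was possible because no values per sample were used. At an adjusted p under 0.01, 0 members were higher and 1 lower in the double mutant (all listed genes 8.25% and 3.49%). At that threshold flp-10 and nlp-8 stayed higher in the quadruple mutant (all listed genes 11.1%), and 5 of the calls were lost in all. At an adjusted p under 0.1, 2 members were higher and 1 lower in mir-58 (all listed genes 2.42% and 7.73%). At the same threshold 5 were lower in the double mutant (7.66%). A minimum of 1.5-fold changed no call of a member. With the antimicrobial nlp genes 1 gene was lower in mir-58, 5 in the double mutant, and without the YGGW-type class 2 were lower in the quadruple mutant. Less the median of all listed genes, the members' median was 0.09 in the quadruple mutant. Less the difference between the all-gene medians of the 2 mutants, the step from mir-58 to the double mutant was -0.43. The median of that step over all listed genes was 0.04. Adding 36 further genes named flp or nlp in the annotation, chosen after seeing the data, gave 5 higher in the quadruple mutant. In that mutant 14.2% of all listed genes were called higher. The other medians moved by at most 0.1.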

Other observations

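The annotation gives flp or nlp symbols to 36 further genes that the deposited table lists under sequence names, so the rule did not take them. None was called in mir-58 or the double mutant, and 2 were higher and none lower in the quadruple mutant, where 14.2% and 9.82% of all listed genes were called. The called genes are nlp-53 and nlp-101, named after their values were seen. For nlp-53 the authors' deposited table gives 0.32, 0.57 and 1.29 in the 3 mutants (adjusted p = 1.43e-03 in the last). For nlp-101 the authors' deposited table gives 0.20, 0.20 and 1.36 (adjusted p = 0.0399 in the last). The medians of the 36 genes were 0.24, -0.02 and 0.20 in the same order of mutants, with 28, 16 and 26 genes above 0. The gene nlp-49, whose peptide acts on the receptor SEB-3, has 0.37, 0.11 and 0.20 by the authors' deposited table, against 0.46, -0.06 and -0.22 for seb-3.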
